A study of Mus musculus with 4 samples.

Results

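Lysosomal genes were described in mouse testis RNA from a busulfan model of low sperm number: 11 cathepsins, the related proteases legumain and tripeptidyl peptidase, and 19 other enzymes, binding proteins and membrane proteins of the organelle. The 32 genes are a list of names, drawn up with earlier results of these data known, and no cut on measured values was used. All 32 were found among the 44509 gene symbols of the deposited table, each on 1 row. Of them, 31 reached the level needed for testing, a value of 1 FPKM in no fewer than 2 libraries. FPKM divides a gene's fragment count by its length and by the size of the library, so levels can be set side by side between genes. The list was divided by what is known of the genes' usual source in testis. Ctss, Laptm5 and Cd68 are typical of macrophages, Ctsl is typical of Sertoli cells, and the other 28 form the remaining class. Most of these are active in many cell types, though Ctsc and Ctsk are better known from immune cells and osteoclasts.

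The comparison was between 2 libraries each of these groups: mice given busulfan and then Cus-1, a resin glycoside from a cuscutae extract, and mice given busulfan alone. Busulfan, an alkylating agent, removes proliferating cells of the germ line. All 4 libraries thus come from the drug model, and no untreated testis was analysed here. The labels give no strain, age, dose or time, and they speak of 100 mg of testis tissue per group without saying whether a library is 1 animal or a pool. What the p-values measure is thus no more than the spread among these 4 libraries, which may be technical. The groups rest on the source label, because the titles of the busulfan libraries begin with BPA and those of the treated libraries with CUS2, which the labels do not explain.

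Lysosomes are acidic compartments in which proteins, glycans and lipids are taken apart. Cathepsins are their proteases. Membrane proteins such as LAMP1 and LAMP2 line the organelle, and the transcription factors TFEB and TFE3 bind the letters CACGTG in many of its genes. In the testis, Sertoli cells take up dying germ cells and the residual cytoplasm of spermatids and digest them in lysosomes, macrophages of the interstitium are rich in lysosomes, and the acrosome of the sperm head is an organelle related to the lysosome.

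The letters CACGTG were searched in the promoter windows of RefSeq (GRCm38.p6, the assembly that mm10 names), which run from 250 bases before to 50 after each transcript start. The motif reads the same on both strands. The table held 32 windows for 29 of the 32 genes, with no entry for Ctsb, Ctsh and Asah1. CACGTG stood in 9 of these windows (28.1%), against 2349 of all 32851 windows (7.15%). With T before and A after it, which is part of the count just given, it stood in 3 windows (9.38%), those of Ctsa, Ctsd and Gla, against 320 of all windows (0.974%). Windows of the lysosomal genes had a median GC content of 55.0%, against 52.7% for all windows. RefSeq and the GENCODE annotation do not place every start alike. The matching windows of Ctsa, Lgmn, Ctsl, Ctsd and Gla belonged to starts 900, 721, 370, 211 and 120 bases inside the GENCODE gene. Ctsa and Lgmn each had another window, nearer to the GENCODE start, that held 0 copies. The matches of Ctsa, Lgmn and Ctsl thus depend on which start is used. Ctsd and Gla would keep at least 1 copy of CACGTG in a window at the GENCODE start. The copy that Ctsd would keep has no T before it, so its longer match would be lost, while that of Gla would stay. All these matches are included in the counts above. The 250 bases before the start are printed for 4 genes whose starts differ by at most 6 bases between the annotations, with CACGTG in capitals. Lamp1 is shown because it had the most copies and stood apart in the expression data, Lamp2 as its closest relative, Glb1 as the enzyme gene with the smallest p below, and Ctss as a macrophage-typical gene.
Lamp1, chr8:13158911-13159160, plus strand: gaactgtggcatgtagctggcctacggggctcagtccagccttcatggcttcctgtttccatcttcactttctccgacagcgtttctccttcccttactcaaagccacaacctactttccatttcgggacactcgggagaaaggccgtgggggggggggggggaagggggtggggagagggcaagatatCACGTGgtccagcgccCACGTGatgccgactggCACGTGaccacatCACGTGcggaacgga
Lamp2, chrX:38456461-38456710, minus strand: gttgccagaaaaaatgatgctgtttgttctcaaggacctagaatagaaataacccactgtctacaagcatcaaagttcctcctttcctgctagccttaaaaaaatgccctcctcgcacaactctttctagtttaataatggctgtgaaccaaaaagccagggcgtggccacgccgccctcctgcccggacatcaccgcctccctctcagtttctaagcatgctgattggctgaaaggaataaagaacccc
Glb1, chr9:114400828-114401077, plus strand: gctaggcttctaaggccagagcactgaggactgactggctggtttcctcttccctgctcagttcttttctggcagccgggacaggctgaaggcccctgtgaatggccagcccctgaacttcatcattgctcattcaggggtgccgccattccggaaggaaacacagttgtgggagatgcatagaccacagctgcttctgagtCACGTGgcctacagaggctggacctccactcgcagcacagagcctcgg
Ctss, chr3:95526536-95526785, plus strand: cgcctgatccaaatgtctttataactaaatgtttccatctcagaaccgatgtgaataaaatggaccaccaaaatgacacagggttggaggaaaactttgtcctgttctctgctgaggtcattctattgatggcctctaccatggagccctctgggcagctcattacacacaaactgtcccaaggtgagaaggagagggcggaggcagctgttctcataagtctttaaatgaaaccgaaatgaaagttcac
In Lamp1, 4 copies began 61, 45, 28 and 15 bases before the start. Glb1 had 1 copy, 48 bases before its start, while Lamp2 and Ctss had 0 in the whole window. A match is a string of letters, not a measured binding site.

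Most lysosomal genes had lower values in testes given Cus-1 after busulfan than in testes given busulfan alone. Together the 32 genes summed to 2498 and 3384 FPKM in the Cus-1 libraries, against 4440 and 3740 FPKM in the busulfan libraries. This was 0.344% and 0.458% of the summed FPKM with Cus-1 and 0.612% and 0.504% with busulfan. Of the 31 genes tested, 30 had a negative log2 fold change (Cus-1 minus busulfan, on log2(FPKM + 1)) and 1, Lamp1, a positive one. The median was -0.54, against 0.04 for all 19837 genes tested.

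No lysosomal gene passed the threshold of 0.05 on the limma p-value adjusted over all tested genes, and neither did any other gene (0.0%). The lowest adjusted p among the 31 was 0.152. At an unadjusted limma p under 0.05, 8 of the 31 were lower, where 9.96% of all tested genes were lower, and 0 were higher, against 18.0% of all. Both Cus-1 libraries lay below both busulfan libraries for 25 of the 31, against 31.7% of all tested genes. They lay above for 1, against 36.6% of all, and 5 genes overlapped between the groups. In either direction, 68.4% of all tested genes did not overlap.

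The 8 lower at an unadjusted p depended on the libraries. A fit with 1 library left out has only 1 library in a group, so no count is given for it. The median over the 31 genes was -0.29 without Cus-1 1, -0.80 without Cus-1 2, -0.38 without busulfan 1 and -0.67 without busulfan 2. It was negative with each library left out, but turned to 0.15 when each library was centred on its Sertoli markers and to 0.10 when centred on its macrophage markers. Those scalings moved the median of all genes to 0.73 and 0.69. Each shifts every gene of a library alike. By construction, the lysosomal median thus stayed 0.58 below that of all genes, as in the data as deposited. A gene's lower value in bulk tissue can come from fewer cells of a type or from less RNA per cell, and the data cannot tell these apart.

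**Figure D1:**
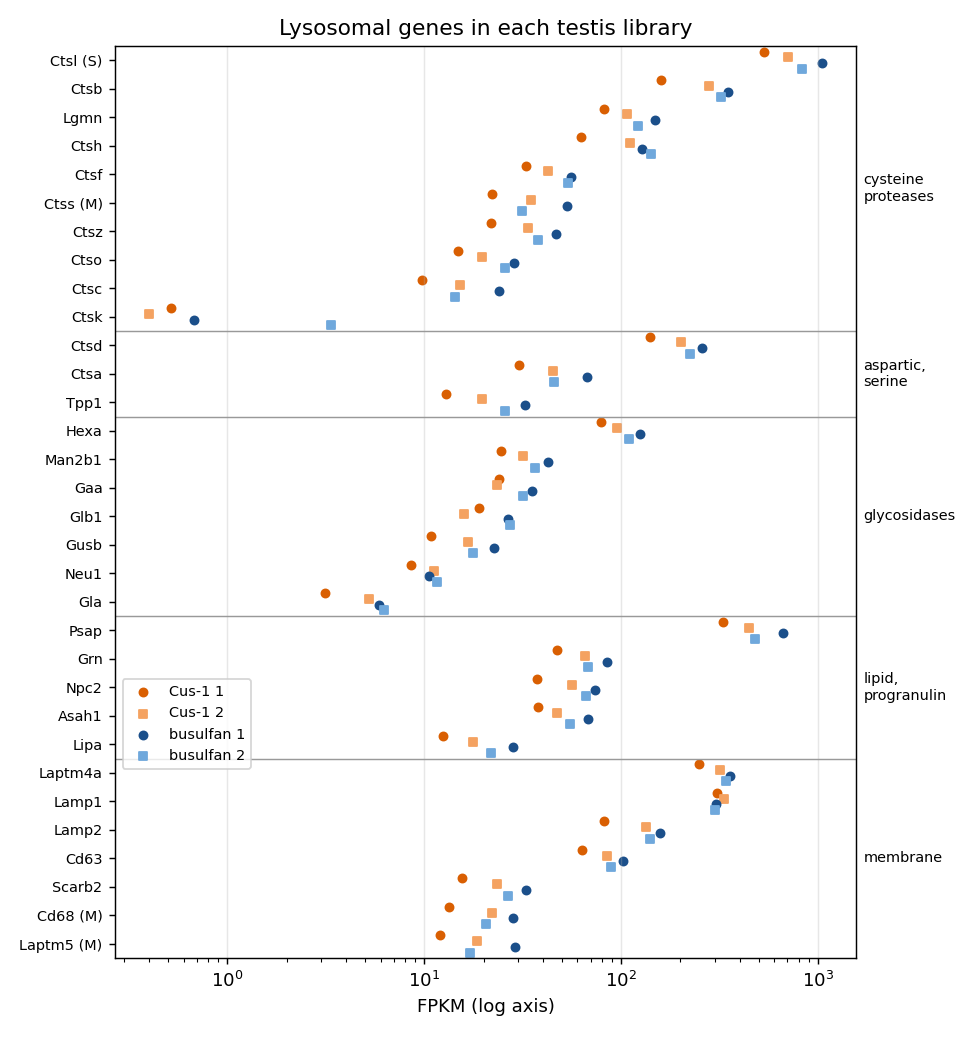
FPKM of each lysosomal gene (log axis) in the 4 libraries, 1 point per library, grouped by role and sorted by level; (M) marks the genes typical of macrophages and (S) that of Sertoli cells. Cus-1 1 is the lowest library for 28 of the 31 tested genes and busulfan 1 the highest for 26, while Lamp1 keeps 301 to 335 FPKM in all 4.

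The libraries followed a common order. For 21 of the 31 genes the values ran, from high to low, busulfan 1, busulfan 2, Cus-1 2, Cus-1 1, an order that 19.4% of all tested genes showed. Cus-1 1 was the lowest library for 28 of them (34.8% of all genes) and busulfan 1 the highest for 26 (33.3%). Some cell type markers differed between the libraries in the same or the opposite order. Summed Sertoli markers (12 genes) were 2568 and 3139 FPKM with Cus-1 and 5419 and 3822 FPKM with busulfan, and summed spermatocyte markers (10 genes) were 3387 and 3082 FPKM with Cus-1 and 1417 and 2138 FPKM with busulfan. Summed elongating spermatid markers (9 genes) were at 12170 and 4387 FPKM with Cus-1 and at 3218 and 3355 FPKM with busulfan, so Cus-1 1 was far above the other 3 libraries. Summed peritubular markers (7 genes) did not follow the order, at 257.1 and 255.3 FPKM with Cus-1 and 293.4 and 225.4 FPKM with busulfan. Their mean log2 level was still lowest in Cus-1 1 (4.47) and highest in busulfan 1 (4.82). Of the 7, 6 had a negative log2 fold change and 1 a positive one (median -0.28), and 5 overlapped between the groups. Summed Leydig markers (8 genes) followed the order, at 13980 and 20500 FPKM with Cus-1 and 28540 and 27690 FPKM with busulfan. Their mean log2 level did not, at 8.96 and 9.61 with Cus-1 and 9.66 and 9.98 with busulfan, where busulfan 2 was highest. All 8 Leydig and all 8 endothelial markers had negative log2 fold changes (medians -0.46 and -0.47). The part of these markers in the lysosomal values was not tested.

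The cysteine cathepsins and legumain summed to 939.5 and 1348 FPKM with Cus-1, against 1889 and 1578 FPKM with busulfan, the largest sum of the 5 role groups in each library. Ctsl, an endopeptidase that Sertoli cells make in large amounts, lies on chromosome 13 (64359337 to 64370890, minus strand) and was the most abundant of the 32 genes. It was at 534 and 705 FPKM with Cus-1, against 1054 and 826 FPKM with busulfan. Both Cus-1 libraries were below both busulfan libraries, with means of 619.5 ± 121 and 939.7 ± 161 FPKM (SD, n = 2 each). The log2 fold change was -0.60 (SE 0.24, limma adjusted p = 0.184). Leaving out Cus-1 1 gave -0.40, and leaving out Cus-1 2 gave -0.80. Ctsl took 21.4% and 20.8% of the summed lysosomal FPKM with Cus-1 and 23.7% and 22.1% with busulfan. Against the mean log2 level of the Sertoli markers in the same library, Ctsl stood 3.38 and 3.61 higher with Cus-1 and 3.41 and 3.41 higher with busulfan. Relative to these markers the groups overlapped.

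Ctsb, an endopeptidase and dipeptidase found in most cells, was at 159 and 279 FPKM with Cus-1, against 350.5 and 323 FPKM with busulfan. Ctsh, an aminopeptidase, was at 62.5 and 111 FPKM with Cus-1, against 128 and 141 FPKM with busulfan. Both genes had lower values in each Cus-1 library, but Cus-1 2 lay much closer to the busulfan libraries than Cus-1 1 did. Their log2 fold changes of -0.67 (SE 0.30) and -0.68 (SE 0.30) were accordingly -0.27 each without Cus-1 1.

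Lgmn, the asparaginyl endopeptidase legumain that processes cathepsins, was at 81.7 and 107 FPKM with Cus-1, against 149 and 122 FPKM with busulfan. Ctsf was at 33.0 and 42.8 FPKM with Cus-1, against 55.4 and 53.6 FPKM with busulfan. Ctso was at 14.8 and 19.6 FPKM with Cus-1, against 28.5 and 25.7 FPKM with busulfan. These 3 did not overlap between the groups, and neither did 68.4% of all tested genes in either direction. Ctso had the smallest p of the cysteine cathepsins (log2 fold change -0.64, SE 0.20, limma unadjusted p = 0.0226, adjusted p = 0.153). Ctsz, a carboxypeptidase, was also apart, at 22.0 and 33.7 FPKM with Cus-1, against 46.8 and 37.8 FPKM with busulfan. Ctsc, the dipeptidyl peptidase that activates granule proteases of immune cells, overlapped, at 9.78 and 15.2 FPKM with Cus-1, against 24.1 and 14.3 FPKM with busulfan.

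Ctsk, the collagen-degrading cathepsin of osteoclasts, was the gene that did not reach the level for testing. It was listed at 0.52 and 0.40 FPKM with Cus-1, against 0.68 and 3.35 FPKM with busulfan, so busulfan 2 alone exceeded 1 FPKM. Ctsk lies on chromosome 3 (95499256 to 95509362), and Ctss starts 17423 bases farther along the same strand (95526786 to 95556403) at a level of at least 22.0 FPKM in every library.

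Of the proteases with other mechanisms, all 3 were lower in both Cus-1 libraries, as were 31.7% of all tested genes. Ctsd, the main aspartic protease of the lysosome, was at 140 and 202 FPKM with Cus-1, against 257 and 224 FPKM with busulfan (log2 fold change -0.51, SE 0.23). Ctsa, a serine carboxypeptidase that also protects beta-galactosidase and neuraminidase, was at 30.2 and 45.0 FPKM with Cus-1, against 67.5 and 45.8 FPKM with busulfan. Its groups barely separated, with Cus-1 2 just under busulfan 2. Tpp1, which removes tripeptides from protein ends, had the lowest log2 fold change of the 31 genes, at 12.8 and 19.6 FPKM with Cus-1, against 32.3 and 25.7 FPKM with busulfan (log2 fold change -0.82, SE 0.26, limma unadjusted p = 0.0237, adjusted p = 0.154). Without Cus-1 1 it was -0.54, and with each library centred on Sertoli or macrophage markers it was -0.14 and -0.18.

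The glycosidases were lower in both Cus-1 libraries for 6 of 7 genes, against 31.7% of all tested genes. Glb1 encodes beta-galactosidase and lies on chromosome 9 (114401076 to 114474898, plus strand). Its values were 19.0 and 15.9 FPKM with Cus-1, against 26.6 and 27.4 FPKM with busulfan. Here the lower Cus-1 library was Cus-1 2, and the spread within groups was small (17.42 ± 2.21 FPKM with Cus-1 and 26.96 ± 0.587 FPKM with busulfan, SD, n = 2 each). Glb1 had the smallest p of all 31 genes (log2 fold change -0.61, SE 0.17, limma unadjusted p = 0.0155, adjusted p = 0.152). Gaa, the acid alpha-glucosidase that breaks down glycogen, was at 24.0 and 23.5 FPKM with Cus-1, against 35.4 and 31.8 FPKM with busulfan (log2 fold change -0.48, SE 0.15). For Glb1 and Gaa the log2 fold change stayed between -0.73 and -0.41 with any 1 library left out.

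Hexa, a subunit of beta-hexosaminidase, was at 78.6 and 95.2 FPKM with Cus-1, against 124 and 110 FPKM with busulfan. Man2b1, the lysosomal alpha-mannosidase, was at 24.6 and 31.7 FPKM with Cus-1, against 42.5 and 36.7 FPKM with busulfan. Gusb, the beta-glucuronidase, was at 10.8 and 16.6 FPKM with Cus-1, against 22.5 and 17.7 FPKM with busulfan. All 3 were apart, as were 68.4% of all tested genes in either direction, and Gusb was apart by the smallest margin. Gla, the alpha-galactosidase on chromosome X, was lower still in level, at 3.12 and 5.25 FPKM with Cus-1, against 5.86 and 6.22 FPKM with busulfan. Neu1, the neuraminidase that CTSA protects, overlapped at 8.56 and 11.2 FPKM with Cus-1, against 10.5 and 11.6 FPKM with busulfan. Its log2 fold change of -0.16 (SE 0.21) was 0.02 without Cus-1 1.

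All 5 genes for lipid and sphingolipid breakdown and progranulin were lower in both Cus-1 libraries, against 31.7% of all tested genes. Psap, the precursor of the saposins that present sphingolipids to hydrolases, and a product of Sertoli cells, was at 331 and 449 FPKM with Cus-1, against 661 and 477 FPKM with busulfan. Only busulfan 1 stood far above the rest, and the log2 fold change of -0.54 (SE 0.26) was -0.31 without it. Npc2, which carries cholesterol out of the lysosome, was at 37.4 and 56.3 FPKM with Cus-1, against 73.9 and 66.4 FPKM with busulfan. Lipa, the acid lipase that releases cholesterol from its esters, was at 12.5 and 17.6 FPKM with Cus-1, against 28.2 and 21.9 FPKM with busulfan (log2 fold change -0.70, SE 0.24, limma unadjusted p = 0.0320, adjusted p = 0.162). Lipa thus had the largest negative value after Tpp1. Asah1, the acid ceramidase, was at 38.0 and 47.1 FPKM with Cus-1, against 67.7 and 54.9 FPKM with busulfan. Grn, the gene of progranulin, was at 47.5 and 65.3 FPKM with Cus-1, against 85.0 and 68.3 FPKM with busulfan, with Cus-1 2 just below busulfan 2.

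The membrane proteins held the exception. Lamp1 lies on chromosome 8 (13159161 to 13175338, plus strand). Its values were 305 and 335 FPKM with Cus-1, against 302 and 301 FPKM with busulfan. Its level was nearly the same in Cus-1 1 and the busulfan libraries, and only Cus-1 2 was higher. The log2 fold change was 0.08 (SE 0.15, 95% interval -0.31 to 0.48, limma adjusted p = 0.723). It was 0.01 after quantile normalization, under which the groups overlapped. Lamp2, its relative on chromosome X, was at 82.1 and 133 FPKM with Cus-1, against 158 and 139 FPKM with busulfan (log2 fold change -0.50, SE 0.26). The ratio of Lamp1 to Lamp2 was 3.72 and 2.51 with Cus-1, against 1.92 and 2.16 with busulfan. Their log2 fold changes differed by 0.58, in the same direction in both Cus-1 libraries (exact two-sided permutation p = 0.33, the smallest that 2 against 2 libraries allow). An exon of Grtp1 overlaps Lamp1 on the opposite strand, and Grtp1 was at 62.3 and 57.1 FPKM with Cus-1, against 33.3 and 43.9 FPKM with busulfan. The sources used here do not say whether fragments were counted by strand, and the part of Grtp1 in the Lamp1 value was not tested.

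Laptm4a, a transporter-like protein of late endosomes, was at 248.7 and 317.4 FPKM with Cus-1, against 359 and 342 FPKM with busulfan. Cd63, a tetraspanin of late endosomes and exosomes, was at 63.4 and 85.2 FPKM with Cus-1, against 102 and 89.4 FPKM with busulfan. Their log2 fold changes of -0.32 (SE 0.19) and -0.37 (SE 0.20) were, after Lamp1 and Neu1, the smallest in size. Scarb2, which delivers beta-glucocerebrosidase to lysosomes, was at 15.6 and 23.4 FPKM with Cus-1, against 32.8 and 26.7 FPKM with busulfan.

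**Figure D2:**
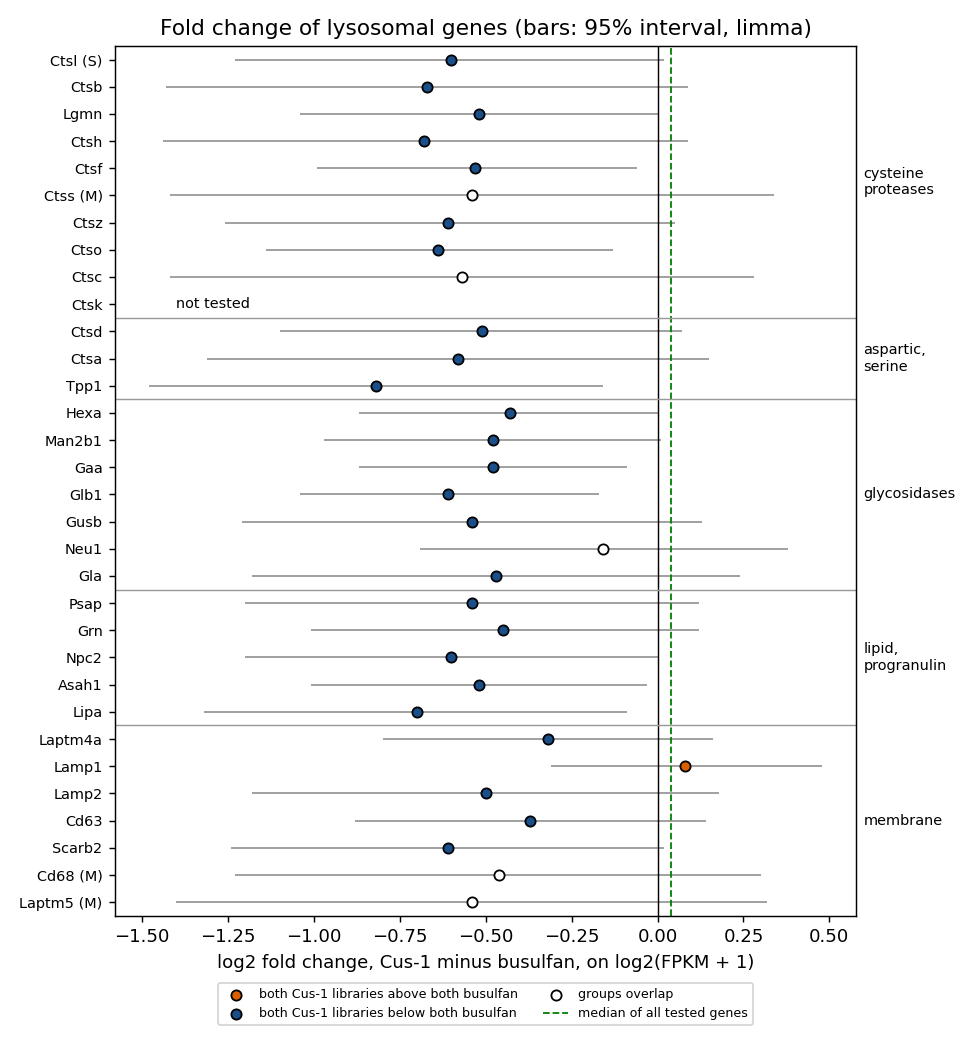
Log2 fold change of each gene (Cus-1 minus busulfan, on log2(FPKM + 1)) with its 95% interval from limma, grouped by role; filled points mark genes whose groups do not overlap, open points those that do, and the dashed line the median of all tested genes (0.04). Of 31 points, 30 lie below 0 and 1, Lamp1, lies above at 0.08, while most intervals reach 0.

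The genes typical of macrophages had fold changes like those of the other lysosomal genes, but their groups overlapped. Ctss, the cathepsin of antigen-presenting cells, was at 22.0 and 34.98 FPKM with Cus-1, against 53.2 and 31.3 FPKM with busulfan. Cd68, a heavily glycosylated lysosomal membrane protein of macrophages, was at 13.4 and 22.1 FPKM with Cus-1, against 28.3 and 20.6 FPKM with busulfan. Laptm5, a lysosomal membrane protein of blood-derived cells, was at 12.0 and 18.6 FPKM with Cus-1, against 28.8 and 17.1 FPKM with busulfan. In all 3, busulfan 1 was highest and Cus-1 1 lowest, and Cus-1 2 lay slightly above busulfan 2. Ctsc showed the same order, which 4 of the 31 lysosomal genes and 4.24% of all tested genes had. The log2 fold changes were -0.54 (SE 0.34) for Ctss, -0.46 (SE 0.30) for Cd68 and -0.54 (SE 0.33) for Laptm5, with limma adjusted p-values of 0.316, 0.321 and 0.303. Without busulfan 1 they were -0.17, -0.24 and -0.18, and without Cus-1 1 they were -0.22, -0.12 and -0.25.

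The median of these 3 was -0.54 and that of the 27 tested genes of the remaining class was -0.53. In each library, the mean log2 level of the 3 macrophage-typical genes was 1.25 and 1.05 below that of the 27 with Cus-1, and 0.93 and 1.36 below with busulfan. The mean of these differences was -1.15 in either group (exact two-sided permutation p = 1, n = 2 each). The ratio of Ctss to Ctsl was 0.0412 and 0.0496 with Cus-1, against 0.0505 and 0.0379 with busulfan, and so overlapped between the groups. No difference between the macrophage-typical and the other genes was therefore detectable with these libraries, which does not show that there was none.

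Macrophage markers outside the list had a median log2 fold change of -0.64 over 16 genes. Both Cus-1 libraries lay below both busulfan libraries for 13 of them, against 31.7% of all tested genes. They lay above for 1, against 36.6% of all, and the groups overlapped for 2. These markers summed to 536 and 656 FPKM with Cus-1, against 929 and 741 FPKM with busulfan. Of them, 0 were at 0 in all libraries. Lyz2, a lysozyme gene, was at 157 and 256 FPKM with Cus-1, against 333 and 292 FPKM with busulfan, and C1qa, a complement gene of tissue macrophages, was at 67.1 and 89.5 FPKM with Cus-1, against 130 and 102 FPKM with busulfan. Csf1r and Aif1 were picked with their values in view. The receptor gene Csf1r had the order of Ctss, Cd68 and Laptm5, at 19.2 and 27.7 FPKM with Cus-1, against 39.9 and 26.9 FPKM with busulfan. Aif1 went the other way, at 129 and 60.5 FPKM with Cus-1, against 44.8 and 49.0 FPKM with busulfan. Set against the mean log2 level of the macrophage markers in the same library, the 3 genes stood 0.12 and 0.49 higher with Cus-1 and 0.31 and 0.05 higher with busulfan, which overlapped. Mast cell markers summed to at most 0.51 FPKM, epididymis markers to at most 0.27 FPKM, and lymphocyte and granulocyte markers to at most 3.09 FPKM in a library.

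**Figure D3:**
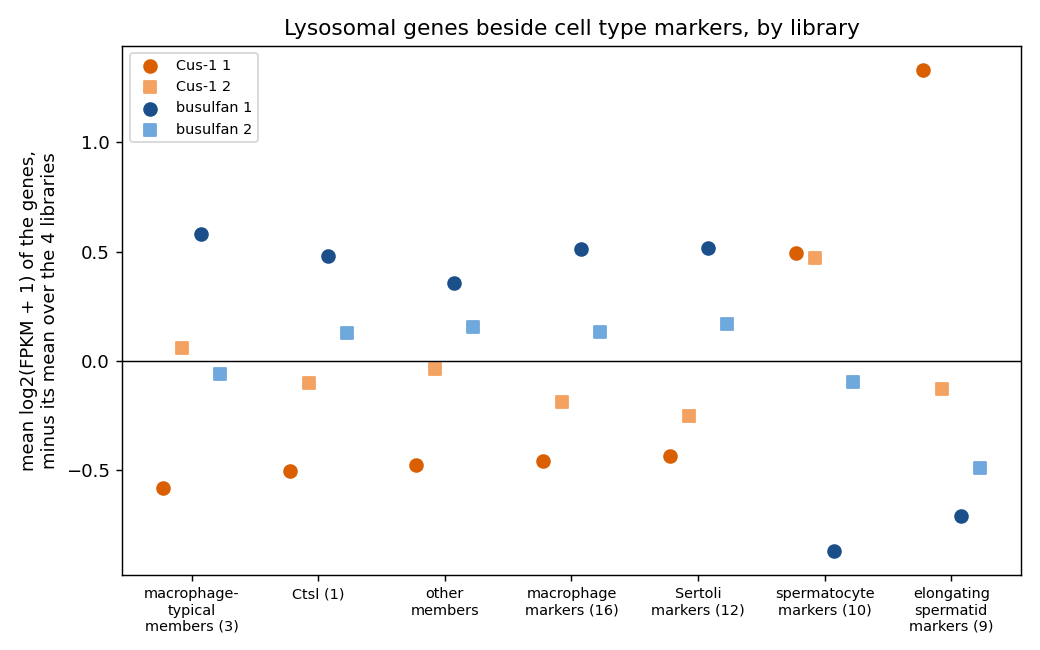
Mean log2(FPKM + 1) of the lysosomal gene classes and of cell type marker lists in each library, minus the mean over the 4 libraries; numbers of genes stand in brackets, and the other members are 27 tested genes. The 3 lysosomal classes are lowest in Cus-1 1 and highest in busulfan 1, like the macrophage and Sertoli markers, and the spermatocyte markers are lowest in busulfan 1.

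Against the Sertoli markers, the 27 remaining genes were on average 0.41 and 0.14 lower on the log2 scale with Cus-1 and 0.53 and 0.38 lower with busulfan. The difference between the groups was 0.17, with Cus-1 1 lying between the busulfan libraries. Centred on the Sertoli markers, 29 of the 31 lysosomal genes turned positive, and Lipa and Tpp1 stayed negative. Centred on the macrophage markers, 27 had a positive one. Clu and Aard, the most abundant Sertoli markers, were at 1783 and 2235 FPKM and at 319 and 363 FPKM with Cus-1, against 3873 and 2613 FPKM and 626 and 499 FPKM with busulfan.

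Other lists of lysosomal genes also had medians below 0, with genes in both directions. Of 28 other hydrolases tested, 25 had a negative log2 fold change and 3 a positive one (median -0.41). At an unadjusted limma p under 0.05, 8 were lower and 1 was higher, against 9.96% and 18.0% of all tested genes, and 0 genes of this and the next 3 lists passed the adjusted threshold. Ppt1, a thioesterase that removes palmitate from proteins, was at 153 and 177 FPKM with Cus-1, against 304 and 236 FPKM with busulfan (log2 fold change -0.70, SE 0.19). Gm2a, an activator of ganglioside breakdown, was at 152 and 206 FPKM with Cus-1, against 280 and 264 FPKM with busulfan (-0.62, SE 0.20). Arsa, the arylsulfatase A that is also found in the acrosome, went the other way, at 62.4 and 51.0 FPKM with Cus-1, against 31.4 and 35.2 FPKM with busulfan (0.75, SE 0.17, limma unadjusted p = 0.00750, adjusted p = 0.152). Of the 11 cathepsins outside the 32, which include those of placenta and granulocytes, 5 were in the table and 0 were tested, and their sum was at most 1.87 FPKM in a library.

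Of 17 other lysosomal membrane proteins, 13 had negative and 4 positive log2 fold changes (median -0.24). At an unadjusted limma p under 0.05, 3 were lower and 2 higher, where 9.96% of all tested genes were lower and 18.0% higher. The share higher was thus below that of all genes. Laptm4b, the relative of Laptm4a, was at 141 and 195 FPKM with Cus-1, against 268 and 233 FPKM with busulfan. Its groups were apart, whereas Cd164, a sialomucin, overlapped at 161 and 178 FPKM with Cus-1, against 175 and 171 FPKM with busulfan. Slc38a9, an amino acid sensor at the lysosomal membrane, was higher at 13.4 and 11.0 FPKM with Cus-1, against 6.64 and 8.13 FPKM with busulfan (0.65, SE 0.21).

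The V-ATPase is the proton pump that acidifies the lysosome. Of its 21 genes tested, 13 had a negative and 8 a positive log2 fold change (median -0.24), with 2 lower and 2 higher at an unadjusted limma p under 0.05. The share lower was near the 9.96% of all tested genes, and the share higher was below the 18.0% of all. Its most abundant subunit genes overlapped between the groups. The log2 fold change was -0.13 (SE 0.16) for Atp6v0c, and for Atp6v1g1 it was 0.09 (SE 0.16), or -0.06 after quantile normalization. Atp6ap1, an accessory subunit, was at 35.4 and 57.3 FPKM with Cus-1, against 73.5 and 74.6 FPKM with busulfan. Atp6v1c2, a low-level subunit gene, was at 1.48 and 1.64 FPKM with Cus-1, against 0.21 and 0.54 FPKM with busulfan.

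Of 29 genes of sorting and biogenesis, 21 had a negative and 8 a positive log2 fold change (median -0.28). At an unadjusted limma p under 0.05, 7 were lower and 1 was higher, against 9.96% and 18.0% of all tested genes. Ap1m1, the medium chain of the AP-1 adaptor that sorts cargo from the Golgi, had the smallest p of all these lists, at 132 and 132 FPKM with Cus-1, against 65.1 and 70.8 FPKM with busulfan (0.95, SE 0.14, limma unadjusted p = 0.00108, adjusted p = 0.152). The 2 libraries of each group agreed closely, and the groups were far apart. Tfe3, a regulator that binds CACGTG, was at 19.6 and 20.2 FPKM with Cus-1, against 34.5 and 27.5 FPKM with busulfan (-0.61, SE 0.18, adjusted p = 0.152). Tfeb, which was picked with its values in view, was at 7.99 and 9.03 FPKM with Cus-1, against 13.6 and 12.2 FPKM with busulfan. Rab7, which brings endosomes to lysosomes, was at 78.4 and 120 FPKM with Cus-1, against 133 and 123 FPKM with busulfan, and Lamtor5, a subunit of the scaffold that anchors nutrient signalling, overlapped with a log2 fold change of 0.06 (SE 0.14), or -0.09 after quantile normalization.

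The number of genes lower at an unadjusted p moved with the libraries here too. It is not given with 1 library left out, because such a fit has only 1 library in a group. The directions in these 4 lists hold for the values as deposited, and the lists were not summarised after centring on markers. Centring shifts every gene of a library alike, and moved the median of all tested genes from 0.04 to 0.73 (Sertoli) and 0.69 (macrophage). That shift is larger in size than each of the 4 list medians, which would thus turn positive.

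**Figure D4:**
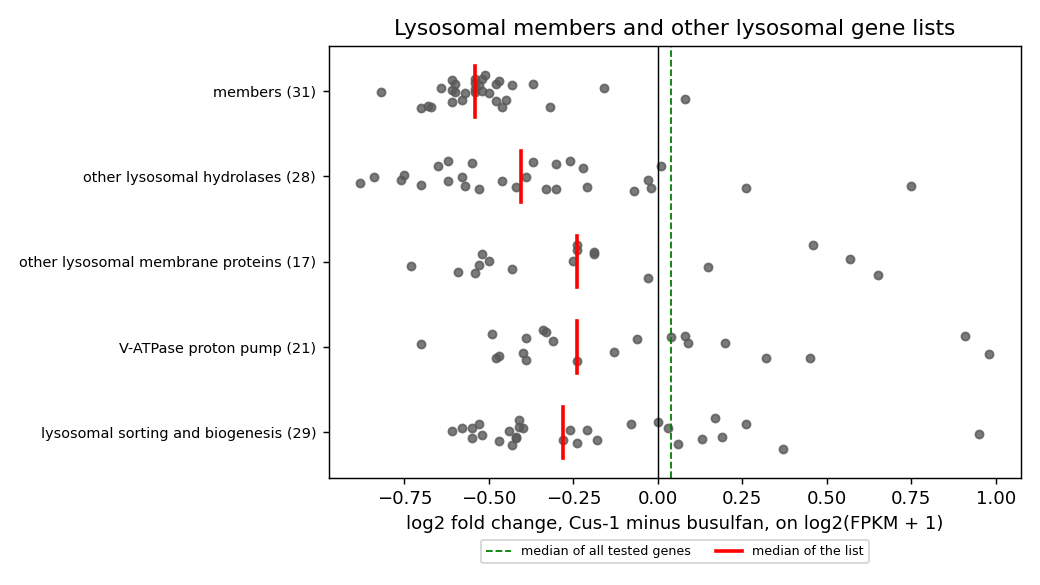
Log2 fold change of each tested gene (Cus-1 minus busulfan, on log2(FPKM + 1)) in the 32-gene list and 4 other lysosomal lists, with the number tested in brackets; red lines are list medians, the dashed line is the median of all tested genes, and vertical scatter within a row has no meaning. The medians run from -0.54 for the 31 tested genes of the list to -0.24 for the V-ATPase and the other membrane proteins, and every list has genes above 0.

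Exons of 9 of the 32 genes overlap exons of another gene: Ctsa, Ctsb, Ctsd, Ctsl, Ctsz, Lamp1, Hexa, Glb1 and Grn. The partners of Ctsd and Glb1 and a partner of Ctsl lie on the same strand, where counting by strand would not separate the reads. For partners on the opposite strand, reads cannot be told apart unless strand was used in counting, which is not stated. Tmem202, opposite Hexa, was at 36.1 and 34.7 FPKM with Cus-1, against 21.2 and 23.1 FPKM with busulfan, and Pltp, opposite Ctsa, at 30.1 and 41.9 FPKM with Cus-1, against 61.8 and 41.4 FPKM with busulfan. Values of these 9 genes are uncertain to that extent.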

How the data were processed

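RNA of testis tissue was measured in 4 libraries, 2 of busulfan with Cus-1 and 2 of busulfan alone, grouped by the source label and numbered in order of submission. The authors deposited 1 table of FPKM values per gene, to 2 decimals, and mm10 is the build per the submitters' processing notes. No aligner, counter, annotation or strand setting is named in them or in the file header. Multiples of 1 fragment among low values of genes with 1 transcript put the depth at an estimated 12700000 to 14000000 fragments a library. Of 45536 rows, 910 without a gene name were left out (0.641% to 0.688% of the summed FPKM). Of 115 repeated symbols the row with the highest mean was kept.

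The 19837 genes that reached 1 FPKM in no fewer than 2 libraries were fitted on log2(FPKM + 1) by limma 3.58.1 (R 4.3.3, eBayes with trend). This scale understates changes of low genes. P-values were adjusted over all tested genes by Benjamini-Hochberg. The script was tested on simulated data. Positions come from GENCODE M21, promoters from RefSeq GRCm38.p6. The members, lists and tests were chosen with earlier results of these data known. All 32 members could be named; of the other lysosomal lists, the 2 most abundant genes and the smallest p in each direction; of macrophage and Sertoli markers, the 2 most abundant. A gene that this rule names is not reported here. Alternatives were a pseudocount of 0.1, no low-value filter, a 5 FPKM filter, quantile normalization, no trend, centring on markers, and leaving out each library.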

Additional observations from a re-analysis of the deposited data

How the results depend on the processing

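With 2 libraries a group, no adjusted limma p among the 31 genes reached the threshold under any alternative run, and the lowest was 0.0793, when centred on Sertoli markers. Leaving out 1 library gave medians of -0.80 to -0.29 for all 31 genes. The number lower at an unadjusted p was 0 to 22 with 1 library left out. It was 17 after quantile normalization, 5 without the trend, and 0 when centred on Sertoli or macrophage markers. Among all 19837 tested genes, 2697 were lower after quantile normalization and 1828 without the trend. Only 65 (Sertoli) and 67 (macrophage) of all tested genes were lower when centred, so the 0 there does not set the lysosomal genes apart. Centring on Sertoli markers turned the medians to 0.15 (all), 0.15 (macrophage-typical) and 0.16 (remaining), and centring on macrophage markers to 0.10, 0.10 and 0.12. By construction this shifts every gene alike. After centring, both Cus-1 libraries lay below both busulfan libraries for 0 of the 31 genes. They lay above for 10 (Sertoli) and 9 (macrophage), and quantile normalization put 0 above. The share of all genes was not counted for these positions. With centring, 1 of the 31 was higher at an unadjusted limma p under 0.05 each time. Of all 19837 tested genes, 9063 (Sertoli) and 7854 (macrophage) were higher. With 1 library left out, Neu1 ran from -0.33 to 0.02, Cd164 from -0.10 to 0.04 (both turned without Cus-1 1) and Atp6v1g1 from -0.05 (without busulfan 1) to 0.22. After quantile normalization Atp6v1g1 was -0.06 and Lamtor5 -0.09; the cause was not tested. Leaving out 1 library moved the log2 fold change of 24 of the 31 genes by over 1.5 times. No paired analysis was possible because the labels give the groups no shared replicate numbers. The estimated depth leaves genes near 1 FPKM, such as Ctsk and Atp6v1c2, with few fragments.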
